A study of Mus musculus with 2 samples.

Results

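The type I interferon response genes described here are 41 named mouse genes of the 32285 in the deposited matrices. They were chosen by symbol, and all 41 were found. The study sorted cells from tumor-bearing lungs of bone marrow chimeras and made 1 single-cell RNA library per group. In LYZKL, marrow of Tmem173fl/fl;Lyz2-Cre mice had been placed in lethally irradiated KrasLSL-G12D/+Lkb1fl/fl hosts. In WTKL, the same hosts had received Tmem173fl/fl marrow without Cre. Both groups therefore share floxed Tmem173 in the marrow, the KrasLSL-G12D/+ and Lkb1fl/fl alleles in the host, and adenoviral Cre (Ad-Cre) given through the nose 8 weeks before sampling. Tamoxifen is named in the treatment label of WTKL alone, and the growth protocol mentions Ad-Cre without it. If WTKL mice did receive tamoxifen, its part and that of Lyz2-Cre cannot be told apart. Lyz2-Cre is active in cells of the myeloid lineage, and host cells that outlive irradiation carry no Lyz2-Cre. The labels do not say how many mice were pooled, and with 1 library per group no difference below has a replicate check or a test.

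The LYZKL library held 13607 barcodes and 93584629 UMIs (unique molecular identifiers, 1 per captured transcript), and the WTKL library held 12204 barcodes and 77181312 UMIs. The labels state 7202 cells for LYZKL and 6609 for WTKL. After removal of barcodes with under 500 detected genes or over 10% mitochondrial UMIs, 13451 LYZKL and 12003 WTKL barcodes remained, and 94 of these barcode sequences occurred in both libraries. The label calls the cells T cells. T cell receptor and CD3 transcripts marked 63.0% of the kept LYZKL barcodes and 66.9% of the kept WTKL barcodes, and the others included B cells, macrophages or monocytes, and neutrophils. Barcodes that met the gates of more than 1 lineage, 1342 in LYZKL and 1225 in WTKL, were set apart. Levels below are CPM (the UMIs of a gene per 1000000 summed UMIs of all gated cells of a type), which count 3′ tags and are not divided by transcript length. Each log2 ratio is LYZKL over WTKL, and every interval is a 95% interval that covers counting error only.

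Tmem173 encodes STING, the adaptor through which cytosolic DNA leads to interferon production. Its level in S100a8-high neutrophils was 3.70 CPM in LYZKL and 21.2 CPM in WTKL (log2 ratio -2.52, 95% interval -3.34 to -1.77). In macrophages or monocytes it was 30.9 CPM in LYZKL and 39.1 CPM in WTKL (log2 ratio -0.34, 95% interval -0.63 to -0.047). The labels do not give the deleted exons, so a 3′ tag cannot check the deletion. In T cells, which are not of the myeloid lineage, Tmem173 was 77.2 CPM in LYZKL and 30.5 CPM in WTKL among Foxp3+ cells and 47.5 CPM in LYZKL and 23.1 CPM in WTKL among CD4+ Foxp3- cells. Among CD8+ cells it was 35.4 CPM in LYZKL and 37.8 CPM in WTKL (log2 ratio -0.092, 95% interval -0.28 to 0.097).

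Type I interferons (interferon beta and the interferon alphas) bind the receptor IFNAR1 and IFNAR2, whose kinases JAK1 and TYK2 phosphorylate STAT2. It joins IRF9 in the complex ISGF3, which binds interferon-stimulated response elements in the promoters of response genes. The products of those genes sense viral nucleic acid, block translation or entry of viruses, modify proteins with ISG15, or feed back on the pathway. In lung tumors the same genes are read as a trace of interferon reaching a cell.

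The element that ISGF3 binds holds the letters GAAANNGAAA, or TTTCNNTTTC on the other strand. RefSeq promoters (GRCm38.p6, the build called mm10, 250 bases before to 50 bases after a start) were found for 33 of the 41 members. Of these, 17 (51.5%) held the letters on either strand in at least 1 promoter, against 1079 of all 27025 genes (3.99%) in windows of the same length. The promoters of Ifit1, Ifit3 and Isg15 are shown as examples from the 12 members at least 1.5-fold lower in LYZKL in CD8+ T cells. They do not stand for all 12. Of the others, Ifit3b also held 2 matches, while Ifit2 and Irf7 held 0. The promoters of Slfn8 and Slfn9 are shown because the libraries differed more for Slfn9 than for its neighbour in several types. These were CD8+ T cells, B cells, macrophages or monocytes, and S100a8-high neutrophils. Capitals mark every match, and overlapping matches run together. The windows lie at chr19:34640639-34640938, plus strand for Ifit1, chr19:34583279-34583578, plus strand for Ifit3, chr4:156200769-156201068, minus strand for Isg15, chr11:83020673-83020972, minus strand for Slfn8 and chr11:82991781-82992080, minus strand for Slfn9. Each sequence reads 5′ to 3′ along its gene's strand.
Ifit1: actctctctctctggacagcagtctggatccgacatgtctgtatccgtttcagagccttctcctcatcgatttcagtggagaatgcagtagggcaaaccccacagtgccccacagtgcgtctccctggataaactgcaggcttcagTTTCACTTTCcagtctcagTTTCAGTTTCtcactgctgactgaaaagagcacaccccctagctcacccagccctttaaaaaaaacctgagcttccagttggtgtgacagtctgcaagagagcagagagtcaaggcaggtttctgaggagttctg
Ifit3: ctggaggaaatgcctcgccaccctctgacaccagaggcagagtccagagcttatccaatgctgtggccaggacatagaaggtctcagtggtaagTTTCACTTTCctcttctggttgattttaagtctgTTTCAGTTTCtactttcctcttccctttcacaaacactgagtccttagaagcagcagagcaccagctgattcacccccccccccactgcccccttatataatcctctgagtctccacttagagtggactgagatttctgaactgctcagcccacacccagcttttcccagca
Isg15: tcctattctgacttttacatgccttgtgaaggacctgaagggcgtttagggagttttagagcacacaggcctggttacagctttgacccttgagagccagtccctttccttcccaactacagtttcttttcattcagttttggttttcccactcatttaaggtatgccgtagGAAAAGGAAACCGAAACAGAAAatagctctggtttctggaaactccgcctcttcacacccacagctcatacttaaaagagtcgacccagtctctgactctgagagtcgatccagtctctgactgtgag
Slfn8: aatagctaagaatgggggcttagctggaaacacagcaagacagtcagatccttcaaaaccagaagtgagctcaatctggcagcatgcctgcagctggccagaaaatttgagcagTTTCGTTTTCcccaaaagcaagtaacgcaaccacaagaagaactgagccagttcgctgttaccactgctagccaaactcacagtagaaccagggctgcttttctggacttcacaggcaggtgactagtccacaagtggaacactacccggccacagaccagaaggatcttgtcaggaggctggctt
Slfn9: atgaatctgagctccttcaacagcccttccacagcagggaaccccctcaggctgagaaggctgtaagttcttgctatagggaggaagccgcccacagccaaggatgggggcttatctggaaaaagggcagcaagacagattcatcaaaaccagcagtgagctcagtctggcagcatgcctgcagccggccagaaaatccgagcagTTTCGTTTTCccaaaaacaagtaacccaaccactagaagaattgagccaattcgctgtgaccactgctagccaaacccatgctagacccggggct
Ifit1 and Ifit3 each held 2 matches with the same letters, and Isg15 held 3 matches in 1 overlapping run. Slfn8 and Slfn9 each held 1 match, again with the same letters. In CD8+ T cells the median log2 ratio was -0.35 over 16 measured members with a match and -0.34 over 14 without one, and in Foxp3+ T cells it was 0.24 over 13 members with a match and 0.24 over 13 without one. In B cells the values were 0.48 over 11 members and 0.12 over 14. Many members sit in small clusters. Ifit2, Ifit3, Ifit3b and Ifit1 lie together on chromosome 19, Slfn5, Slfn9, Slfn8 and Slfn1 on chromosome 11, Oas2, Oas3 and Oas1a on chromosome 5, and Parp14, Dtx3l and Parp9 on chromosome 16.

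Some neighbours resemble each other enough to share tags. Of all 91-base words (1 read length) in the last 500 bases of their transcripts, 42.2% of those of Oas1a also occur in Oas1g, 20.9% of those of Herc6 in Gm45193, and 17.7% of those of Trim30a in Trim30d. For Slfn8 the share was 9.25%, for Slfn9 9.59%, and for Ifit3 6.34%, shared with Ifit3b. How reads that match both copies were counted is not given in the sources used here, so the counts of these genes are uncertain to that extent.

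The list was highest in myeloid cells. Its summed level was 6494 CPM in LYZKL and 6694 CPM in WTKL in Hcar2+ S100a8-low neutrophils, 4834 and 4390.1 CPM in S100a8-high neutrophils, and 4308 and 4513 CPM in macrophages or monocytes. Lymphocytes lay lower, from 1489.9 to 2569 CPM in LYZKL and from 1184 to 2057 CPM in WTKL. Hcar2+ S100a8-low neutrophils were gated by 2 or more summed UMIs of Hcar2 and Clec4d. A cell with Clec4d alone could thus enter, and their Hcar2 level is not reported here. In each library 29 of the 41 members were highest in this gated type, and 34 members had the same highest type in both.

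The other members peaked in lymphocytes, macrophages or monocytes, or S100a8-high neutrophils. Ifi27l2a, which codes for a small hydrophobic protein, was highest in Foxp3+ T cells, at 819 CPM in LYZKL and 569.7 CPM in WTKL, and lowest in Hcar2+ S100a8-low neutrophils, at 16.03 CPM in LYZKL and 19.1 CPM in WTKL. Sp100, a nuclear body protein, was highest in B cells at 356 CPM in LYZKL and 317 CPM in WTKL. In WTKL its B cell and CD8+ T cell levels had overlapping intervals. The tetherin gene Bst2, whose product holds budding virus at the membrane, peaked in macrophages or monocytes at 469.6 CPM in LYZKL and 443 CPM in WTKL, as did Lgals3bp, a secreted galectin-binding protein, at 473 CPM in LYZKL and 395 CPM in WTKL. Ifitm3, which blocks fusion of virus with endosomes, was also highest there. Slfn1 was highest in S100a8-high neutrophils at 459 CPM in LYZKL and 502 CPM in WTKL, although in WTKL its interval overlapped that of Hcar2+ S100a8-low neutrophils. Ifi44 was at or near 0 in every type, with 5 UMIs in LYZKL and 6 in WTKL in macrophages or monocytes.

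**Figure D1:**
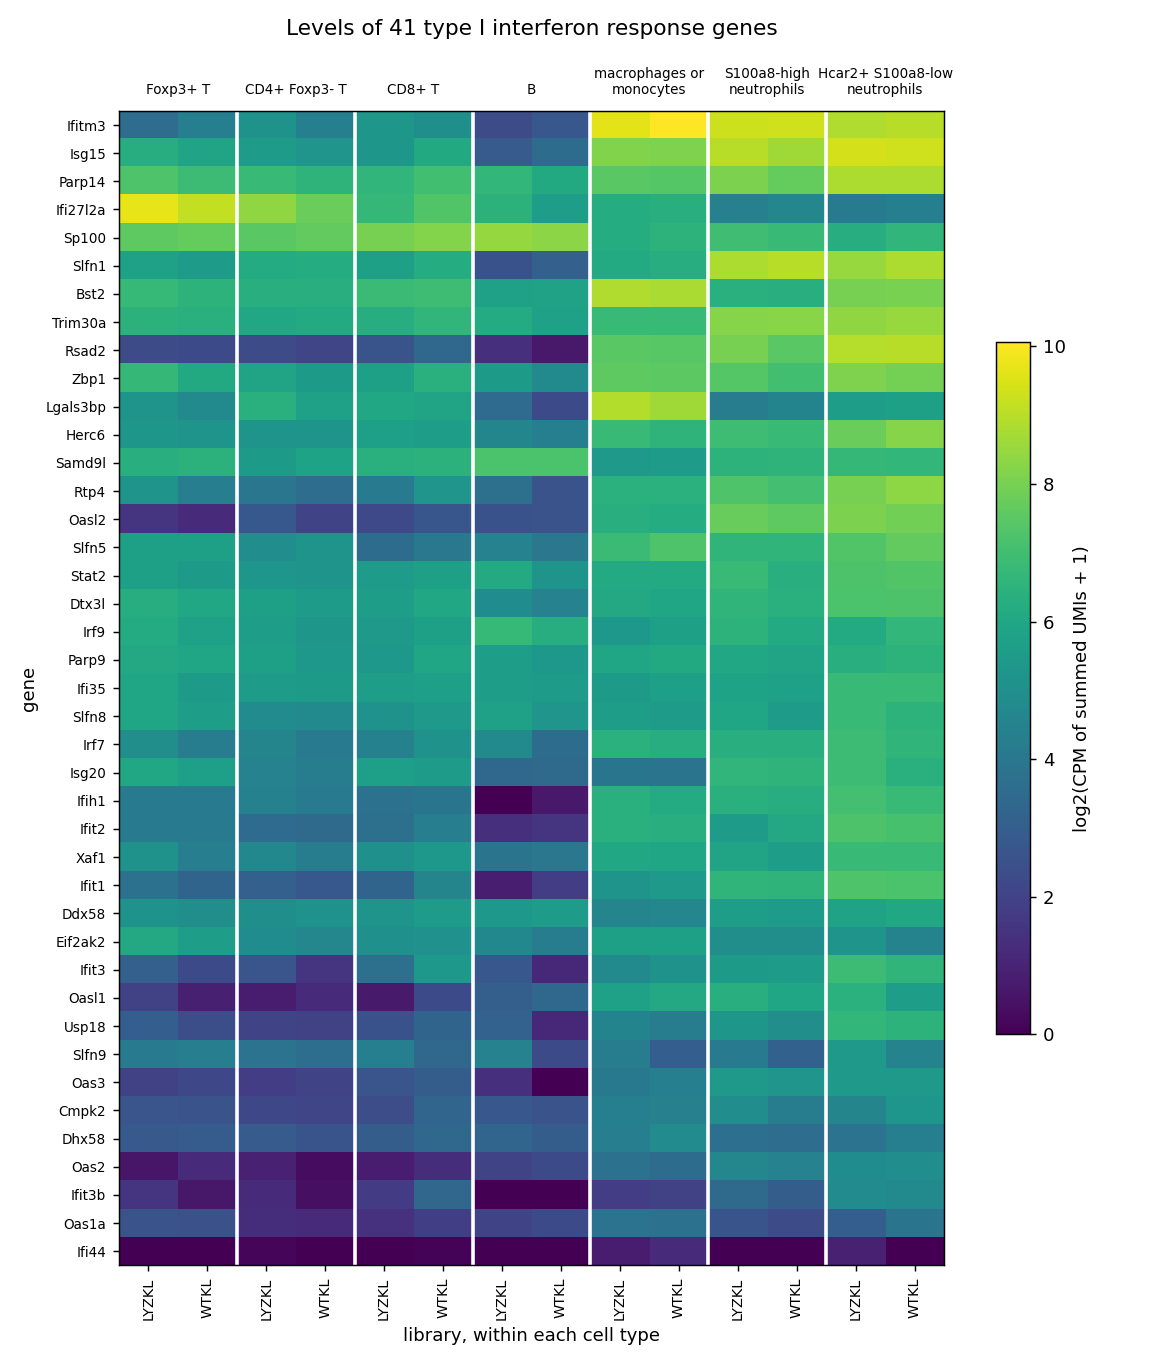
Level of each of the 41 genes in 7 cell types, as log2 of summed CPM plus 1, with LYZKL left of WTKL within each type and genes ordered by mean level. The 3 myeloid types are brightest for most genes, Ifi27l2a is brightest in Foxp3+ T cells, and Ifi44 is dark throughout.

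Beside these levels, the list differed between libraries in opposite directions in CD8+ T cells and in the other lymphocytes. A member counts as measured in a type if it reached 5 CPM in the higher library, so some passed through 1 library only. In Foxp3+ T cells, 26 of 33 measured members were higher in LYZKL (all genes 46.0%) and 7 were lower. Their median log2 ratio was 0.24, where the median over all 9726 measured genes was -0.024. In CD4+ Foxp3- T cells, 26 of 32 were higher (all genes 47.9%) and 6 lower, with a median of 0.25 (all genes -0.01). Among CD8+ T cells, 5 of 37 were higher (all genes 65.8%) and 32 lower, with a median of -0.38 (all genes 0.10). Of the 31 members measured in all 3 T cell classes, 18 (58.1%) were higher in both Foxp3+ and CD4+ Foxp3- cells and lower in CD8+ cells, where 11.2% of all 9049 genes measured in these classes were. Of the other members, 3 were higher in all 3 classes and 3 were lower in all 3. Over the 7 types, 21 of the 40 members measured in at least 2 types (52.5%) had an interval above 0 in 1 type and below 0 in another, against 22.9% of all 10873 such genes. Intervals narrow with the number of UMIs, and these shares were not matched for it.

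**Figure D2:**
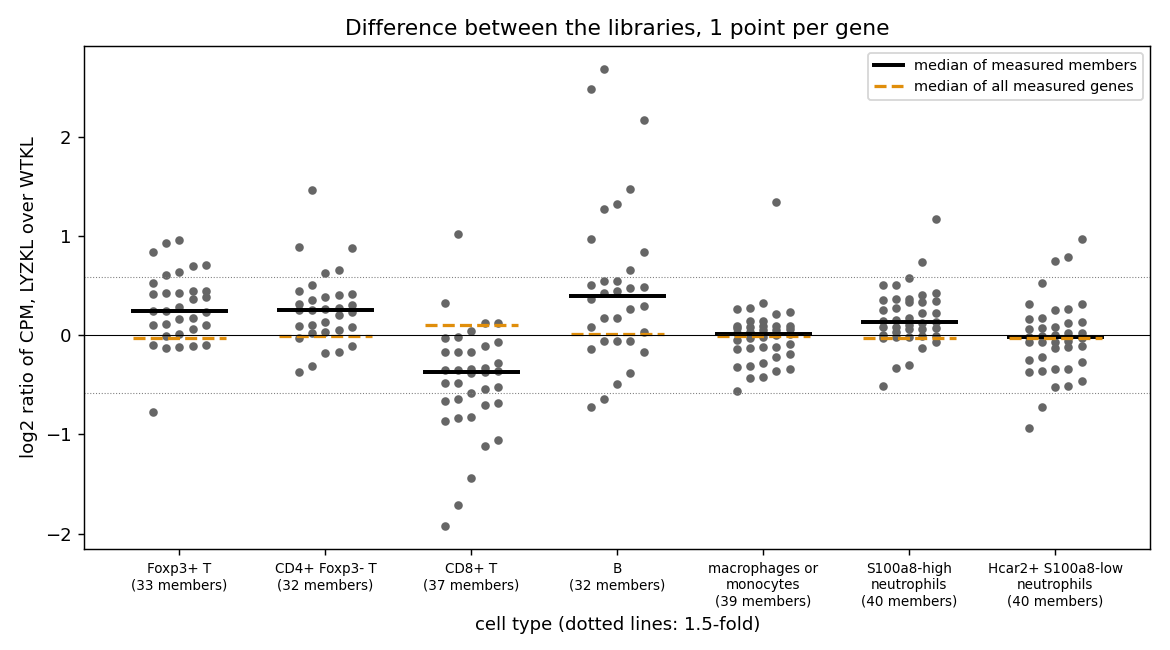
Log2 ratio of CPM, LYZKL over WTKL, with 1 point per measured member in each cell type, a black line at the members' median, a dashed line at the median of all measured genes and dotted lines at 1.5-fold. The members lie mostly above 0 in Foxp3+ and CD4+ Foxp3- T cells, mostly below it in CD8+ T cells and around it in macrophages or monocytes.

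Foxp3+ T cells (669 in LYZKL, 556 in WTKL) are regulatory T cells by their defining transcript. Foxp3 stood at 444 CPM in LYZKL and 419 CPM in WTKL, and Il2ra, the interleukin 2 receptor chain not used for the gate, at 604 and 499.9 CPM. Of the measured members, 7 were at least 1.5-fold higher in LYZKL, where 3.02% of all measured genes were, and 1 was at least 1.5-fold lower, where 5.51% were. Among the 30 members at 5 CPM or more in both libraries, 5 were higher by that much and 1 lower. The widest gap in CPM was that of Ifi27l2a (log2 ratio 0.52, 95% interval 0.45 to 0.60), whose levels are given above. Rtp4, a chaperone-like protein that restricts viral replication, was at 36.01 CPM in LYZKL and 18.98 CPM in WTKL (log2 ratio 0.92, 95% interval 0.52 to 1.34). Xaf1, which promotes cell death, was at 33.9 CPM in LYZKL and 18.98 CPM in WTKL (log2 ratio 0.84, 95% interval 0.43 to 1.25). Each of these intervals lay above 0.

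Genes of the signalling arm had the same direction in these cells. Irf7, the factor that amplifies interferon production, was at 30.1 CPM in LYZKL and 18.4 CPM in WTKL (log2 ratio 0.71, 95% interval 0.29 to 1.14), and Irf9, the DNA-binding part of ISGF3, at 72.5 CPM in LYZKL and 53.9 CPM in WTKL (log2 ratio 0.43, 95% interval 0.18 to 0.68). For Stat2 the levels were 52.2 CPM in LYZKL and 44.3 CPM in WTKL, and the interval of its log2 ratio (0.24) reached below 0. Zbp1, a sensor of left-handed nucleic acid, was at 105 CPM in LYZKL and 67.4 CPM in WTKL (log2 ratio 0.63, 95% interval 0.42 to 0.86), and the kinase gene Eif2ak2, which shuts down translation on double-stranded RNA, at 66.3 CPM in LYZKL and 49.5 CPM in WTKL. The helicase sensors differed less, with Ddx58 (RIG-I) at 33.9 against 30.3 CPM and Ifih1 (MDA5) at 16.4 against 16.2 CPM for LYZKL against WTKL. Ifitm3 was the member past 1.5-fold the other way, at 11.2 CPM in LYZKL and 19.3 CPM in WTKL (log2 ratio -0.78, 95% interval -1.29 to -0.27). With a stricter gate its log2 ratio was 0.39, and 2 members were at least 1.5-fold higher. That gate asked for 1 more T cell UMI and 1 more Foxp3 UMI. It also allowed no UMI of the B cell genes or of Cd8a, Cd8b1, Hcar2 and Clec4d.

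The gap in Foxp3+ T cells depended on which of them were counted. Among cells without a UMI of the proliferation genes Mki67 and Top2a (410 in LYZKL, 374 in WTKL), the median log2 ratio was 0.57. Of 36 members measured there, 30 were higher in LYZKL, where 45.99% of all genes were. There 18 were at least 1.5-fold higher (6.23% of all genes) and 1 was at least 1.5-fold lower (9.41% of all genes). Among the 32 members at 5 CPM or more in both libraries, 14 were higher by that much and 1 lower. Among cells with such a UMI (259 and 182), 18 of 33 were higher (all genes 46.5%), with a median of 0.12. There 1 was at least 1.5-fold higher (5.09% of all genes) and 6 were at least 1.5-fold lower (8.32% of all genes). Among the 29 members at 5 CPM or more in both libraries, 1 was higher by that much and 2 were lower. The cells without such a UMI had Ifit1, which binds foreign RNA caps, at 22.9 against 8.55 CPM for LYZKL against WTKL, Irf7 at 41.7 against 18.2 CPM and Isg15 at 89.8 against 57.2 CPM. The cells with such a UMI had Ifit1 at 5.13 against 8.50 CPM, Irf7 at 20.9 against 18.7 CPM and Isg15 at 64.2 against 58.96 CPM. Cells with such a UMI made up 38.7% of the LYZKL and 32.7% of the WTKL Foxp3+ cells. A split by the naive markers Ccr7, Lef1 and Igfbp4, chosen after the data had been seen, gave medians of 0.45 below 2 UMIs and 0.085 at 2 or more.

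CD4+ Foxp3- T cells (3575 in LYZKL, 3840 in WTKL) held the most UMIs of the 7 types, 26448176 in LYZKL and 21713002 in WTKL. Of their measured members, 5 were at least 1.5-fold higher in LYZKL (2.75% of all genes) and 0 were at least 1.5-fold lower (3% of all genes). Among the 30 members at 5 CPM or more in both libraries, 3 were higher by that much and 0 lower. Ifi27l2a was at 337 CPM in LYZKL and 219 CPM in WTKL (log2 ratio 0.62, 95% interval 0.57 to 0.67). Lgals3bp was at 83.98 CPM in LYZKL and 53.2 CPM in WTKL (log2 ratio 0.66, 95% interval 0.55 to 0.76), and Ifit3, a partner of Ifit1, at 5.33 CPM in LYZKL and 1.93 CPM in WTKL (log2 ratio 1.46, 95% interval 0.96 to 2.00). Ifitm3 was at 35.5 CPM in LYZKL and 19.1 CPM in WTKL (log2 ratio 0.89, 95% interval 0.72 to 1.06), and Oasl2 was the last member past 1.5-fold. Smaller differences with intervals above 0 were seen for the modifier gene Isg15, Irf7, Irf9, Zbp1, Rtp4, Xaf1 and Parp14. Isg15 was at 44.7 CPM in LYZKL and 37.4 CPM in WTKL, and Zbp1 at 57.9 CPM in LYZKL and 43.6 CPM in WTKL. In the opposite direction, Samd9l, a translation repressor, was at 43.3 CPM in LYZKL and 56.00 CPM in WTKL (log2 ratio -0.37, 95% interval -0.49 to -0.25) and Slfn5 at 29.3 CPM in LYZKL and 36.4 CPM in WTKL. The intervals of Ddx58, Trim30a and Sp100 also lay below 0. Of the measured members, 18 had an interval above 0 and 5 had one below 0.

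CD8+ T cells (2476 in LYZKL, 1783 in WTKL) had the list lower in LYZKL. Of their measured members, 12 were at least 1.5-fold lower in LYZKL, where 3.4% of all genes were, and 1 was at least 1.5-fold higher, where 8.35% were. Among the 33 members at 5 CPM or more in both libraries, 9 were lower by that much and 1 higher. Ifit3 was at 12.3 CPM in LYZKL and 40.1 CPM in WTKL (log2 ratio -1.71, 95% interval -1.97 to -1.45), Ifit3b at 2.36 CPM in LYZKL and 8.96 CPM in WTKL, Ifit1 at 8.40 CPM in LYZKL and 22.8 CPM in WTKL (log2 ratio -1.44, 95% interval -1.77 to -1.12) and Ifit2 at 12.2 CPM in LYZKL and 18.9 CPM in WTKL. All 4 IFIT genes were thus past 1.5-fold lower in LYZKL with intervals below 0. Rtp4 was at 17.02 CPM in LYZKL and 37.01 CPM in WTKL (log2 ratio -1.12, 95% interval -1.36 to -0.89) and Isg15 at 38.7 CPM in LYZKL and 68.5 CPM in WTKL (log2 ratio -0.83, 95% interval -0.99 to -0.67). Usp18, the protease that removes ISG15 and blocks the receptor, was at 4.79 CPM in LYZKL and 8.53 CPM in WTKL.

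The signalling genes were lower as well, Irf7 at 20.6 CPM in LYZKL and 33.6 CPM in WTKL (log2 ratio -0.71, 95% interval -0.93 to -0.48), Irf9 at 41.7 CPM in LYZKL and 52.5 CPM in WTKL and Stat2 at 45.7 CPM in LYZKL and 51.5 CPM in WTKL. Zbp1 was at 51.7 CPM in LYZKL and 83.3 CPM in WTKL (log2 ratio -0.69, 95% interval -0.83 to -0.55) and Ifi27l2a at 102 CPM in LYZKL and 161 CPM in WTKL (log2 ratio -0.66, 95% interval -0.76 to -0.56). Parp9, Dtx3l and Parp14, which join in ADP-ribosylation and ubiquitin transfer, had log2 ratios of -0.54, -0.38 and -0.38. The members that did not follow were Slfn9, Ifitm3, Lgals3bp, Isg20 (a 3′ exonuclease for RNA) and Herc6 (the mouse ISG15 ligase), whose log2 ratios ran from 0.038 to 1.02, and the intervals of Slfn9 and Ifitm3 alone lay above 0.

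**Figure D3:**
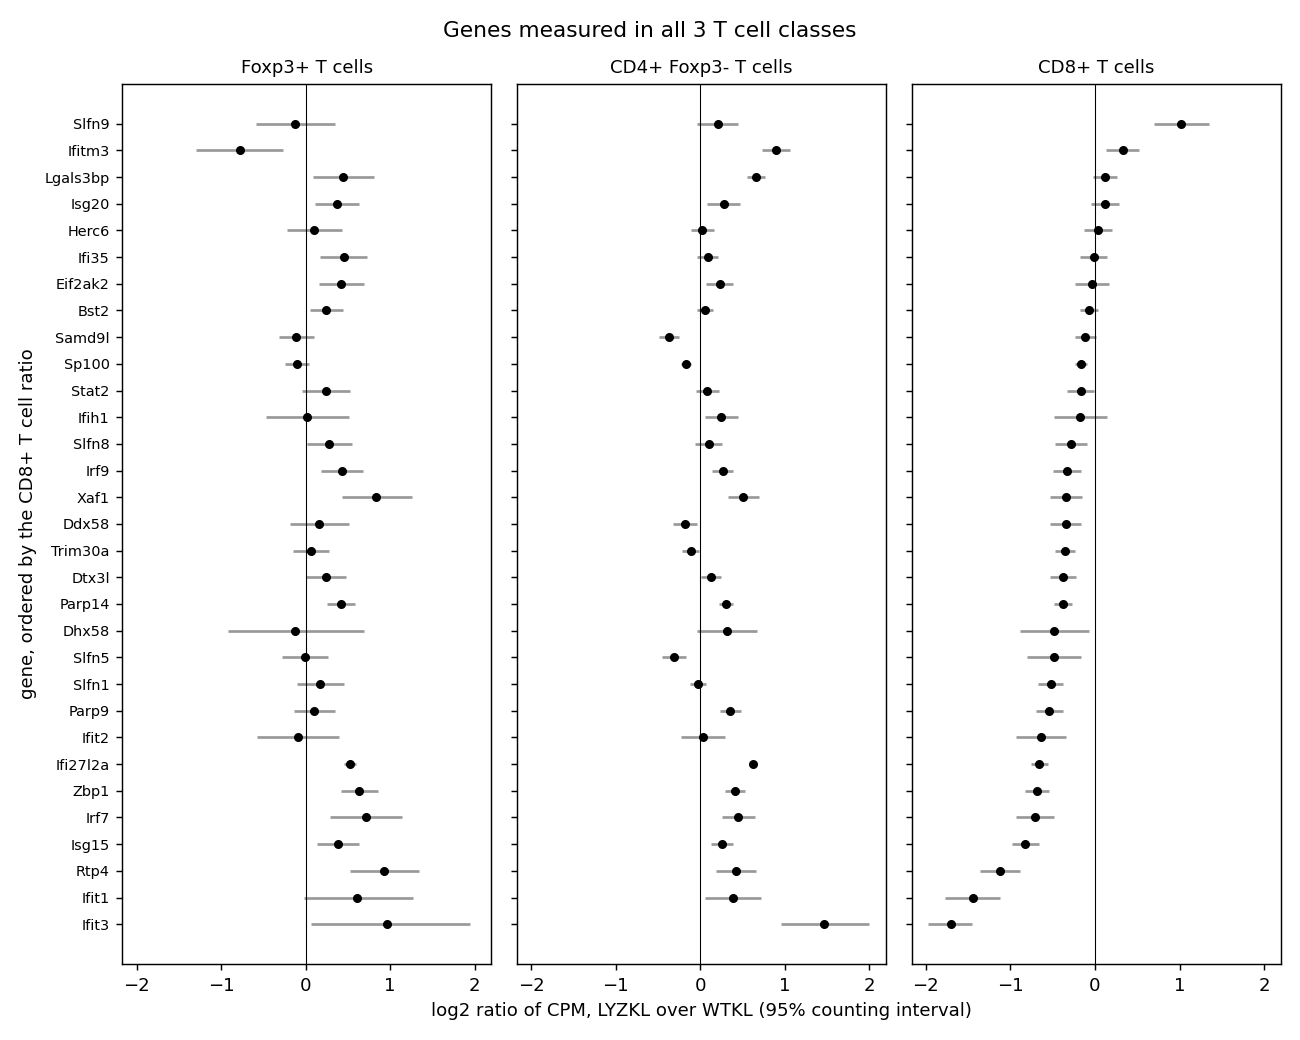
Log2 ratio of CPM, LYZKL over WTKL, with its 95% counting interval, for the 31 members measured in Foxp3+, CD4+ Foxp3- and CD8+ T cells, ordered by the CD8+ ratio. The genes at the bottom, among them Ifit3, Ifit1, Rtp4, Isg15 and Irf7, lie left of 0 in CD8+ T cells and right of 0 in the other 2 classes.

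The makeup of the CD8+ T cells differed between libraries. Naive-type cells, by Ccr7, Lef1 and Igfbp4, were 11.7% of the LYZKL and 33.4% of the WTKL CD8+ cells, cells with Gzmk or Eomes UMIs 11.95% and 24.1%, and cells with UMIs of the residency genes Xcl1, Itga1 or Itgae 64.7% and 32.4%. Each cell was placed by which of these marker sets had the most UMIs. Within each subset the members' median was below 0, at -0.12 in naive-type cells, -0.50 in Gzmk or Eomes cells and -0.42 in residency-marked cells. Ifit3 was at 20.8 against 31.7 CPM in naive-type cells for LYZKL against WTKL, 15.02 against 59.7 CPM in Gzmk or Eomes cells and 8.58 against 35.5 CPM in residency-marked cells. Isg15 was at 53.8 against 65.9 CPM, 36.97 against 82.3 CPM and 36.2 against 69.8 CPM in the same 3 subsets. Depth also differed, with a median of 4647 UMIs per LYZKL CD8+ cell and 5900 per WTKL cell. For LYZKL against WTKL, the medians were 6419 against 4820.5 in Foxp3+ T cells and 6344 against 4910.5 in CD4+ Foxp3- T cells. In each of these T cell classes the library with the deeper cells also had the higher summed list level. The part of depth in the CPM ratios was not tested, and shares at 1 depth are given below. The early response gene Fos, which rises with tissue handling, was at 730.1 against 449 CPM for LYZKL against WTKL in CD8+ cells and at 476 against 602 CPM in Foxp3+ cells, and its part in these differences was not tested.

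By role, most families followed the direction of the whole list within a T cell class. Of all measured members, 26 of 33 were higher in LYZKL in Foxp3+ and 32 of 37 lower in CD8+ T cells. The counts below therefore do not set a family apart from the list. The 4 signalling members Irf7, Irf9, Stat2 and Usp18 were all higher in LYZKL in Foxp3+ T cells, with a median log2 ratio of 0.56, and all lower in CD8+ T cells, with -0.52. Of the 5 nucleic acid sensors, 4 were higher in Foxp3+ T cells and 0 in CD8+ T cells, with medians of 0.16 and -0.35. The Schlafen genes, which restrict translation or cell growth, were divided, with 2 of 4 higher in Foxp3+ T cells and 1 of 4 in CD8+ T cells. Slfn1, tied in mice to T cell quiescence, was at 52.8 CPM in LYZKL and 46.8 CPM in WTKL in Foxp3+ T cells and 52.1 CPM in LYZKL and 74.9 CPM in WTKL in CD8+ T cells (log2 ratio -0.52, 95% interval -0.67 to -0.38). Trim30a, a ubiquitin ligase family member, was at 75.9 CPM in LYZKL and 97.2 CPM in WTKL in CD8+ T cells (log2 ratio -0.36, 95% interval -0.48 to -0.23).

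The oligoadenylate synthetase genes, whose active products make the second messenger for RNase L, were hardly detected in T cells. In Foxp3+ T cells 0 of 5 reached 5 CPM, and in CD8+ T cells Oas3, at 5.38 CPM in LYZKL and 6.93 CPM in WTKL, and Oasl2, at 3.61 CPM in LYZKL and 5.41 CPM in WTKL, did so. Oasl1 had 9 UMIs in LYZKL and 45 in WTKL among CD8+ T cells. The family was well counted in myeloid cells. Oasl2 was at 208 CPM in LYZKL and 190.3 CPM in WTKL in S100a8-high neutrophils and 79.1 CPM in LYZKL and 74.1 CPM in WTKL in macrophages or monocytes, and both intervals of its log2 ratio included 0. Oasl1 was higher in LYZKL in S100a8-high neutrophils (log2 ratio 0.36, 95% interval 0.12 to 0.60) and lower in macrophages or monocytes (log2 ratio -0.34, 95% interval -0.56 to -0.12), though the stricter gate gave 0.30 there.

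Seen cell by cell, the list took a median of 0.230% of a cell's UMIs in LYZKL and 0.175% in WTKL for Foxp3+ T cells. The medians were 0.138% and 0.128% for CD4+ Foxp3- T cells, and 0.144% and 0.153% for CD8+ T cells. The 95th percentile in CD8+ T cells was 0.345% in LYZKL and 0.593% in WTKL, while in Foxp3+ T cells it was 0.710% and 0.433%. To compare cells at 1 depth, each was thinned to 1000 UMIs, which left out at most 7 cells of any type and library.

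After thinning, 5 or more members were detected in 10.8% of LYZKL and 4.32% of WTKL Foxp3+ T cells, in 3.83% and 2.06% of CD4+ Foxp3- T cells, and in 3.03% and 7.52% of CD8+ T cells. For these 3 types the exact binomial (Clopper-Pearson) intervals of the 2 libraries did not overlap. Thinned CD8+ T cells held an IFIT UMI in 2.99% of LYZKL cells (interval 2.36 to 3.74%) and 6.90% of WTKL cells (5.77 to 8.18%). Without thinning the shares were 11.5% and 22.5%. B cells, the type with the fewest IFIT UMIs, had thinned shares of 0.909% in LYZKL and 0.433% in WTKL, at median depths of 3423 and 3104 UMIs before thinning.

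**Figure D4:**
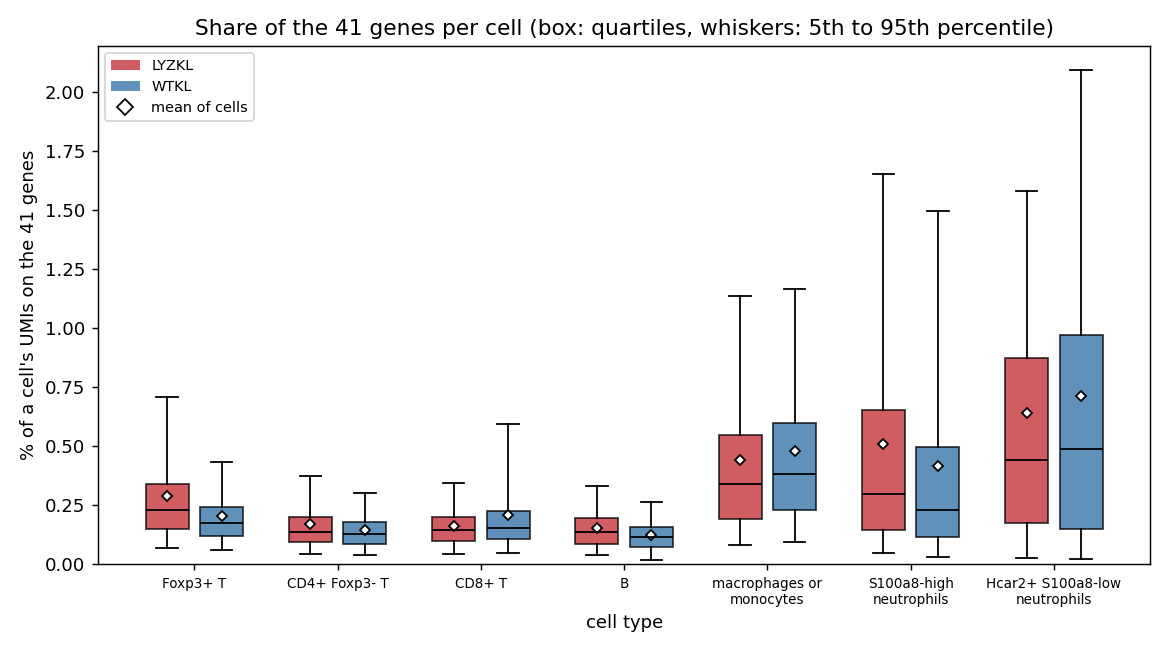
Percent of a cell's UMIs on the 41 genes in each cell type, LYZKL left of WTKL, with boxes at the quartiles, whiskers at the 5th and 95th percentiles and diamonds at the mean. The WTKL whisker of CD8+ T cells reaches 0.593% and the LYZKL one 0.345%, and the order is the opposite in Foxp3+ T cells.

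The members tended to be found in the same cells. The 37 members outside the IFIT family were higher in CD8+ T cells with an IFIT UMI than in those without, by a log2 ratio of 0.55 in LYZKL and 1.05 in WTKL. Among CD8+ T cells with an IFIT UMI (285 in LYZKL, 402 in WTKL), the 37 other members summed to 2137 CPM in LYZKL and 3102 CPM in WTKL (log2 ratio -0.54, interval -0.59 to -0.48). In those without one (2191 and 1381), they summed to 1459.7 and 1501 CPM (log2 ratio -0.04, interval -0.073 to -0.0072). The split uses IFIT detection, which itself differed between the libraries and depends on depth, so it does not show in which cells the difference lies. Among Foxp3+ T cells the other members were at 2397 against 1895 CPM in cells without an IFIT UMI (log2 ratio 0.34) and 3017 against 2679 CPM in cells with one (log2 ratio 0.17).

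The contrast between cells with and without an IFIT UMI was widest in neutrophils. The other members summed to 11807 CPM in LYZKL S100a8-high neutrophils with an IFIT UMI and 3042 CPM in those without, a log2 ratio of 1.96. The same log2 ratio in WTKL was 1.94. All 36 members with at least 20 UMIs in LYZKL, and all 35 in WTKL, were higher in the cells with an IFIT UMI. The share of all genes higher in those cells is not given here, so these counts do not set the list apart. Median depth with against without an IFIT UMI was 4130 against 3909 UMIs in LYZKL and 3862 against 3356.5 in WTKL. In macrophages or monocytes this log2 ratio was 0.98 in LYZKL and 0.96 in WTKL. Cells with an IFIT UMI were also deeper in most types, at a median of 5681 against 4529 UMIs among LYZKL CD8+ T cells.

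**Figure D5:**
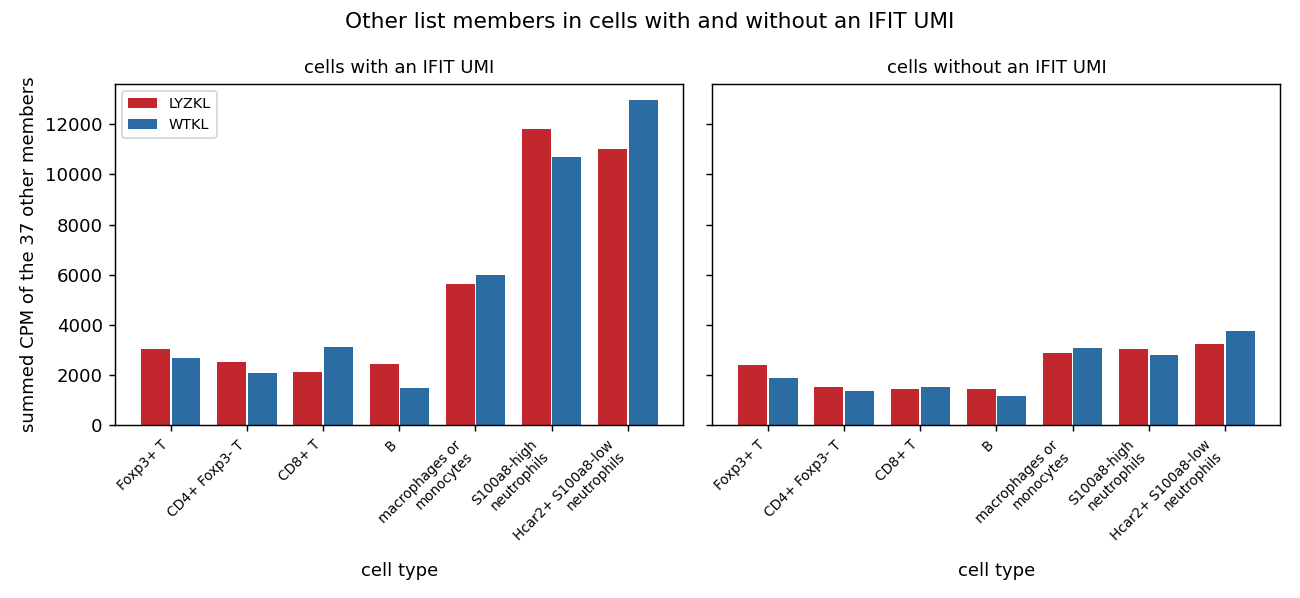
Summed CPM of the 37 members other than Ifit1, Ifit2, Ifit3 and Ifit3b, in cells with an IFIT UMI (left panel) and without one (right panel), LYZKL left of WTKL in each cell type. The CD8+ bars differ in the left panel and nearly meet in the right one.

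Genes outside the list that were most enriched in the cells with the highest list share included other interferon-inducible genes. The rule took, in each type, genes among the 20 highest ratios between the 5% of cells with the highest share and the other cells in both libraries. Rnf213, a large ubiquitin ligase, met it in all 3 T cell classes, with ratios of 4.02 in LYZKL and 7.89 in WTKL for CD8+ T cells. Cxcl10, the chemokine that draws CXCR3-bearing cells, met it in CD8+ T cells, with 5.44 in LYZKL and 11.6 in WTKL, and in S100a8-high neutrophils, with 7.57 and 12.6. In macrophages or monocytes the neutrophil genes Retnlg and Asprv1 met it, with ratios of 14.1 and 19.1 in LYZKL and 4.47 and 8.90 in WTKL. The part of neutrophil RNA in the macrophage values was not tested.

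B cells (333 in LYZKL, 464 in WTKL) were shallow, with 1243705 and 1596802 UMIs in all. Of their 32 measured members, 23 were higher in LYZKL (all genes 51.4%), with a median log2 ratio of 0.39. At least 1.5-fold higher were 9 members (10.3% of all genes), and at least 1.5-fold lower were 2 (9.36% of all genes). Among the 25 members at 5 CPM or more in both libraries, 5 were higher by that much and 1 lower. Stat2, the interferon-specific STAT, was at 69.95 CPM in LYZKL and 35.7 CPM in WTKL (log2 ratio 0.97, 95% interval 0.47 to 1.48), and Irf7 at 26.5 CPM in LYZKL and 10.6 CPM in WTKL (log2 ratio 1.32, 95% interval 0.43 to 2.25). Irf9 was at 107 CPM in LYZKL and 76.4 CPM in WTKL and Parp14 at 99.7 CPM in LYZKL and 68.3 CPM in WTKL. All 4 signalling members, Irf7, Irf9, Stat2 and Usp18, were higher in LYZKL, whereas the effector Isg15 was at 6.43 CPM in LYZKL and 10.6 CPM in WTKL, with 8 UMIs in LYZKL and 17 in WTKL, too few to show a difference.

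Macrophages or monocytes (642 in LYZKL, 402 in WTKL), of the lineage in which Lyz2-Cre acts, had a list median of 0.011 over 39 measured members. Of these, 21 were higher (all genes 49.3%) and 18 lower in LYZKL. At least 1.5-fold higher was 1 member (4% of all genes), Slfn9, and 0 were at least 1.5-fold lower (4.84% of all genes). Isg15 was at 286 CPM in LYZKL and 275 CPM in WTKL (log2 ratio 0.056, 95% interval -0.046 to 0.16), and Rsad2, the gene of viperin, which makes a chain-terminating nucleotide, at 180.4 CPM in LYZKL and 173 CPM in WTKL. Zbp1 was at 187 CPM in LYZKL and 186 CPM in WTKL. Ifitm3 was lower, at 795 CPM in LYZKL and 1071 CPM in WTKL (log2 ratio -0.43, 95% interval -0.49 to -0.37), as were Slfn5 at 115 CPM in LYZKL and 154 CPM in WTKL, Irf9 at 40.4 CPM in LYZKL and 51.7 CPM in WTKL and the RIG-I regulator Dhx58 at 18.99 CPM in LYZKL and 28.03 CPM in WTKL. Lgals3bp was higher, with a log2 ratio of 0.26, and so was Herc6, with 0.27.

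The macrophage gate held several populations. Cells with Saa3 or Cfb UMIs made up 81.5% of it in LYZKL and 70.4% in WTKL, and within them 7 of 39 measured members were higher in LYZKL (all genes 53.2%), with a median of -0.16 and a summed log2 ratio of -0.21. Ifit1 was at 34.3 against 50.2 CPM there for LYZKL against WTKL, Ifit3 at 26.2 against 41.4 CPM and Ifitm3 at 764 against 1108 CPM. Cells with the alveolar macrophage genes Ear2 or Fabp4 numbered 15 in LYZKL and 35 in WTKL, and their summed log2 ratio was 1.31, with Ifitm3 at 2178 against 197 CPM. That value rests on few cells, as the counts show. The marker Lyz2 itself was at 6661 against 10487 CPM for LYZKL against WTKL over the whole gate.

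S100a8-high neutrophils (1115 in LYZKL, 1035 in WTKL) had 29 of 40 measured members higher in LYZKL (all genes 46.4%), with a median of 0.14. At least 1.5-fold higher were 2 (5.04% of all genes), Slfn9 and Cmpk2, a mitochondrial nucleotide kinase, and 0 were at least 1.5-fold lower (9.42% of all genes). Isg15 was at 503 CPM in LYZKL and 399 CPM in WTKL (log2 ratio 0.34, 95% interval 0.24 to 0.43), Rsad2 at 253 CPM in LYZKL and 179 CPM in WTKL (log2 ratio 0.51, 95% interval 0.37 to 0.64) and Cmpk2, its neighbour on chromosome 12, at 29.8 CPM in LYZKL and 17.9 CPM in WTKL. Stat2 was at 112 CPM in LYZKL and 78.8 CPM in WTKL (log2 ratio 0.51, 95% interval 0.31 to 0.72). Ifit2 went the other way, at 46.7 CPM in LYZKL and 66.6 CPM in WTKL (log2 ratio -0.51, 95% interval -0.78 to -0.25).

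The chemokine gene Ccl3 divided these neutrophils into groups whose medians differed in sign. Among cells with 2 or more Ccl3 UMIs (555 in LYZKL, 458 in WTKL), 36 of 40 members were higher in LYZKL (all genes 48.3%) and the median was 0.33. Among cells with under 2 (560 and 577), 10 of 39 were higher (all genes 40.8%) and the median was -0.22. Isg15 was at 819.6 against 590.1 CPM in the first and 214 against 247 CPM in the second, for LYZKL against WTKL. Ifit1 was at 176 against 139.9 CPM in the first and 21.6 against 52.97 CPM in the second. The handling-sensitive genes Fos and Egr1 were lower in LYZKL over all S100a8-high neutrophils, at 849 against 1556 CPM and 399.8 against 823 CPM, and their part in the difference was not tested.

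Hcar2+ S100a8-low neutrophils (302 in LYZKL, 108 in WTKL), the gated type with the highest list level, had a median of -0.023. Of 40 members, 18 were higher (all genes 45.96%) and 22 lower. At least 1.5-fold higher were 3 members (16% of all genes), and at least 1.5-fold lower were 2 (21.6% of all genes), in a type with few UMIs. Oasl1, an oligoadenylate synthetase-like protein that limits Irf7 translation in mice, was at 84.6 CPM in LYZKL and 49.04 CPM in WTKL (log2 ratio 0.79, 95% interval 0.049 to 1.60). Herc6 was at 217 CPM in LYZKL and 299.7 CPM in WTKL (log2 ratio -0.46, 95% interval -0.79 to -0.13), and Rtp4 at 252 CPM in LYZKL and 324 CPM in WTKL. Isg15 differed by less than its counting error, at 674 CPM in LYZKL and 640.3 CPM in WTKL (log2 ratio 0.074, 95% interval -0.14 to 0.29).

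Slfn9, singled out after its values were seen, was past 1.5-fold higher in LYZKL in 5 of the 7 types, and in 4 of them its interval lay above 0. It was at 19.5 CPM in LYZKL and 9.63 CPM in WTKL in CD8+ T cells (log2 ratio 1.02, 95% interval 0.70 to 1.35), 20.9 CPM in LYZKL and 3.76 CPM in WTKL in B cells and 17.6 CPM in LYZKL and 6.95 CPM in WTKL in macrophages or monocytes (log2 ratio 1.34, 95% interval 0.77 to 1.95). In S100a8-high neutrophils it was at 17.3 CPM in LYZKL and 7.65 CPM in WTKL (log2 ratio 1.17, 95% interval 0.56 to 1.83). In Hcar2+ S100a8-low neutrophils it was at 42.7 CPM in LYZKL and 21.8 CPM in WTKL, and that interval included 0 (log2 ratio 0.97, 95% interval -0.12 to 2.26). In Foxp3+ and CD4+ Foxp3- T cells the libraries were closer, at 17.1 against 18.7 CPM and 13.1 against 11.4 CPM for LYZKL against WTKL, with both intervals including 0. Its neighbour Slfn8, whose promoter carries the same match, was at 34.9 CPM in LYZKL and 42.5 CPM in WTKL in CD8+ T cells and 49.6 CPM in LYZKL and 44.98 CPM in WTKL in macrophages or monocytes. The Slfn8 interval lay above 0 in Foxp3+ T cells, B cells and S100a8-high neutrophils, and below 0 in CD8+ T cells. Among LYZKL CD8+ T cells Slfn9 was at 16.3 CPM in cells with an IFIT UMI and 20.03 CPM in the others, and the interval of that log2 ratio included 0.

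Genes of the pathway outside the list frame these values. The 18 type I interferon genes searched gave 16 UMIs in LYZKL and 9 UMIs in WTKL over all kept cells, so their levels could not be compared at this depth. Ifnz gave 15 UMIs in LYZKL and 5 in WTKL, Ifnk 0 and 3, and Ifnab 1 in each library. The other 15 genes searched, Ifnb1 among them, had 0 UMIs in both. The receptor gene Ifnar1 was at 99.8 against 96.3 CPM in Foxp3+ T cells and 88.6 against 74.02 CPM in CD8+ T cells for LYZKL against WTKL, and Ifnar2 at 72.9 against 77.6 CPM and 89.3 against 80.6 CPM. In Foxp3+ T cells both intervals included 0, and in CD8+ T cells both lay slightly above it. Irf1, which interferon gamma induces strongly, was at 250.3 CPM in LYZKL and 383 CPM in WTKL in CD8+ T cells and 496 CPM in LYZKL and 312 CPM in WTKL in B cells.

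The 16 interferon-inducible GTPase genes, whose proteins attack the vacuoles of intracellular pathogens and which respond to interferon gamma more than to type I interferon, also differed in opposite directions between T cell classes. In Foxp3+ T cells 16 of 16 were higher in LYZKL (all genes 46.0%), with a median log2 ratio of 0.56. In CD4+ Foxp3- T cells 15 of 16 were higher (all genes 47.9%), with a median of 0.41. The CD8+ T cells had 15 of 16 lower, with a median of -0.59, where 65.8% of all genes were higher. Iigp1 was at 67.98 CPM in LYZKL and 25.8 CPM in WTKL in CD4+ Foxp3- T cells (log2 ratio 1.40, 95% interval 1.26 to 1.54) and at 21.95 CPM in LYZKL and 38.7 CPM in WTKL in CD8+ T cells (log2 ratio -0.82, 95% interval -1.03 to -0.60). Gbp2 was at 187 CPM in LYZKL and 97.7 CPM in WTKL in Foxp3+ T cells and 54.5 CPM in LYZKL and 106 CPM in WTKL in CD8+ T cells. The feedback gene Socs1 was lower in LYZKL in CD4+ Foxp3- T cells, at 243 CPM in LYZKL and 318 CPM in WTKL, and in B cells it was at 209 CPM in LYZKL and 95.8 CPM in WTKL.

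Transcripts of other cell types were found at low levels in the T cell gates and differed between libraries. In Foxp3+ T cells the neutrophil gene S100a8 was at 65.6 against 83.1 CPM for LYZKL against WTKL, the macrophage gene Lyz2 at 27.1 against 46.2 CPM and the plasma cell gene Jchain at 13.4 against 36.6 CPM. Among CD8+ T cells they were at 96.3 against 81.4 CPM, 42.4 against 52.6 CPM and 17.97 against 40.6 CPM. All 4 free RNA genes followed, S100a9 included, were lower in LYZKL in Foxp3+ and CD4+ Foxp3- T cells. In CD8+ T cells 3 of them were lower and 1 was higher. S100a8 stood at 53246 CPM in LYZKL and 42422 CPM in WTKL S100a8-high neutrophils. The part of this free RNA in the list's differences was not tested.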

How the data were processed

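Sorted cells from lung tumors, which the label calls T cells, were measured with a droplet 3′ kit, 1 library per group. The deposited matrices hold raw UMI counts per gene and barcode, made by the authors with Cell Ranger 6.1.2 on mm10, per the submitters' processing notes. Gene and barcode names came in separate files. Barcodes were kept if they had 500 or more detected genes and no more than 10% mitochondrial UMIs. Cell types were gated on raw UMIs of fixed markers, with thresholds set after the marker distributions were seen. The main gates asked for at least 3 UMIs of T or B cell genes and at most 2 of the other lineage. The stricter gate asked for 1 more UMI of the own lineage and allowed 0 of the other. The automatic threshold of Scrublet marked 0 cells and so had not worked, and no doublet call entered the reported values. As an alternative, the highest Scrublet scores (1447 LYZKL and 1153 WTKL barcodes) were removed. Barcodes meeting gates of more than 1 lineage were set apart. UMIs were summed per type and library and scaled to CPM. Ratios carry exact conditional binomial intervals, and shares exact Clopper-Pearson intervals, at 95%. A library at 0 was set to 3 counts. Per-cell shares were compared after thinning to 1000 UMIs. The calculation of ratio intervals was checked on counts simulated from the CD4+ Foxp3- T cells with counting error alone. The intervals assume the same, so this check does not cover variation between cells or mice. Python 3.11.15, scanpy 1.11.5 and edgeR 4.0.16 (TMM scaling) were used.

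The members, gene lists and alternatives were chosen with earlier results of these data known. Named members were, per type, the 5 highest and 5 lowest ratios among members with 20 CPM and 50 UMIs, the 5 with the highest CPM, and 15 genes always named. Members named outside that rule, such as Slfn9, Slfn8, Ifit2, Ifit3b, Ifi44, Dtx3l and Oasl2 where the rule does not reach them, were chosen after their values were seen. Some pathway and marker genes are not reported here, and the naive subsets used the 3 markers named in the text. Each group being 1 library, the groups were not tested against each other. Depth was 93584629 UMIs in LYZKL and 77181312 in WTKL.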

Additional observations from a re-analysis of the deposited data

How the results depend on the processing

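The median and summed log2 ratio of the list, its counts past 1.5-fold and its mean share of a cell's UMIs were recomputed per type under 28 settings. Of these values 394 stayed within the set limits, 69 moved and 3 turned from an interval apart from 0 to the other sign. In all 17 changed sign, 14 of them from an interval that included 0. Of 1728 values for named members, 1662 stayed, 63 moved and 3 turned from an interval apart from 0, while 71 others changed sign from an interval that included 0. Removing the highest Scrublet scores left all 179 values within the limits. The cause of each was not tested. No paired analysis was possible because each group has 1 library. Depth limits B cells and Hcar2+ S100a8-low neutrophils most, and no setting replaces replicate mice. Naive-marker subsets and the gate without a limit on Hcar2 and Clec4d were chosen after seeing the data.

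In Foxp3+ T cells the summed log2 ratio was 0.234 under the stricter gate, 0.509 as a mean of per-cell CPM, 0.362 with median-of-ratios scaling, 0.507 without cells with a Mki67 or Top2a UMI, 0.267 without the 3 members with the most UMIs, 0.179 with 2 or more naive marker UMIs and 0.478 with fewer. The count of members at least 1.5-fold higher was 2 under the stricter gate, 12 as a mean of per-cell CPM, 18 without proliferating cells and 4 at a minimum of 20 CPM. The count at least 1.5-fold lower was 0 under the stricter gate, the per-cell mean and the 20 CPM minimum, and 2 with no minimum. Ifitm3 changed sign to 0.39 under the stricter gate, and Bst2 to -0.067 without proliferating cells.

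In CD4+ Foxp3- T cells the summed log2 ratio was 0.237 with TMM, 0.253 with median-of-ratios scaling, 0.235 without proliferating cells, 0.165 without the top 3 members, 0.164 with 2 or more naive marker UMIs and 0.239 with fewer. Lower by 1.5-fold was 1 member with no minimum, and higher were 3 at 20 CPM. In CD8+ T cells TMM moved all genes by -0.10 on the log2 scale and gave a summed ratio of -0.432. The sum was -0.422 with median-of-ratios scaling, -0.277 without the Hcar2 and Clec4d limit, -0.154 in naive-type cells, where the median was -0.118, and -0.557 in Gzmk or Eomes cells. Higher were 2 members with no minimum and 0 at 20 CPM, where 7 were lower. In B cells 5 members were higher and 0 lower at 20 CPM, and the sum was 0.444 without the top 3 members.

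In macrophages or monocytes the sum was -0.101 under the stricter gate with 3 members lower, -0.131 as a mean of per-cell CPM with 2 lower, -0.155 without proliferating cells with 2 lower, -0.019 without the top 3 members and -0.215 in Saa3 or Cfb cells. Lower was 1 member without the top 1% of cells and 1 with no minimum, and 0 were higher at 20 CPM. The sum changed sign to 1.31 in Ear2 or Fabp4 cells, where the median was 0.603, and to 0.093 in Vcan or Ccl17 cells. Oasl1 changed sign to 0.30 under the stricter gate.

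In S100a8-high neutrophils the sum was 0.106 with at least 1000 detected genes, 0.291 as a mean of per-cell CPM with 8 members higher, 0.196 with median-of-ratios scaling, 0.168 with TMM, 0.188 without the top 3 members, 0.188 without the top 1% of cells with 4 higher, and 0.333 with 2 or more Ccl3 UMIs. It changed sign to -0.224 with fewer Ccl3 UMIs, where the median also changed sign, to -0.223. Lower was 1 member under the stricter gate, and higher was 1 at 20 CPM. In Hcar2+ S100a8-low neutrophils the sum, -0.044 over the whole type, changed sign to 0.035 with at least 1000 detected genes (5 higher, 1 lower) and to 0.158 without proliferating cells (8 higher, 1 lower), and was -0.155 as a mean of per-cell CPM (4 lower). Lower were 5 under the stricter gate and 1 at 20 CPM.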
